A study of Mus musculus with 16 samples.

Results

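Gabrg1-positive proprioceptors are muscle sensory neurons of the dorsal root ganglia (DRG) in which at least 1 transcript of Gabrg1, the gamma1 subunit of the GABA-A receptor, was counted and in which Tox, a marker of proprioceptors of the back, was low. At embryonic day (e) 15.5, 58 of 259 proprioceptors met this rule, out of 960 wells sequenced one cell at a time with CEL-Seq2, a method that counts unique molecular identifiers (UMIs) near the 3' end of transcripts. The e15.5 neurons were sorted by fluorescence from DRG of the PvtdTom strain, a transgene that places tdTomato under the parvalbumin promoter, and fill 10 libraries of 96 wells. A second set of 576 wells was picked by hand at postnatal day (p) 1 from mice whose shared strain label names both Trpv1Cre; PvFlp; Ai65, which marks cells with a history of Trpv1 and parvalbumin expression, and PvCre; Ai14, which marks parvalbumin-expressing cells. The study took its cells in equal numbers from thoracic and lumbar ganglia at both ages. Neither the segmental level nor the line is given library by library in the labels, and animals are not named. The p-values below therefore measure how far differences within libraries vary from library to library, and that variation may be technical.

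The members were chosen from these same counts. A well counted as a proprioceptor when it held at least 10000 UMIs, under 10% mitochondrial UMIs, at least 1 UMI of each of Pvalb, Runx3, Etv1 and Ntrk3, at least 300 CPM of Etv1 (CPM scales each cell to 1000000 UMIs), under 200 CPM of the glial genes Apoe and Fabp7 together and under 500 CPM of the collagen genes Col1a1 and Col1a2 together. Of the 960 wells, 871 passed the UMI limit, 860 the mitochondrial limit, 366 the 4 markers, 329 the Etv1 limit, 267 the glial limit and 259 the collagen limit. Of these 259 cells, 58 had a Gabrg1 UMI with Tox under 20 CPM (Gabrg1-positive), 100 had neither (double-negative), 85 had Tox of at least 20 CPM and no Gabrg1 UMI (Tox-high), and 16 had both. The member with the most Tox stood at 19.4 CPM (4 UMIs), and the lowest Tox level among the 16 cells with both genes was 23.8 CPM (2 UMIs). The limit of 20 CPM fixes this order, so it does not show separate groups. Gabrg1 was 96.9 CPM over the 16 cells with both and 58.1 CPM over the 58 members.

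Proprioceptors report muscle length and tension from spindles and tendon organs, and their axons reach both a muscle in the periphery and motor neurons in the spinal cord. The transcription factors Runx3 and Etv1 and the neurotrophin receptor gene Ntrk3 are needed for their development. GABA-A receptors are chloride channels of 5 subunits; in sensory neurons, whose internal chloride is high, their opening depolarizes the terminals. Ephrin-A ligands and EphA receptors steer axons by contact, and Hox genes are switched on in a nested order along the body axis.

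The study places Gabrg1, with Efna5, in proprioceptors of the limb. Hoxc10, a gene of lumbar and sacral segments, is used here as a further marker of that label. In libraries 6 to 10, which held 54 of the 58 members and 60 of the 100 double-negative cells, at least 1 Efna5 UMI was found in 46 of 54 members (85.2%) and 37 of 60 double-negative cells (61.7%), and a Hoxc10 UMI in 50 (92.6%) and 58 (96.7%). Members also held more UMIs, with a median over all libraries of 143328 against 111002. After each cell was thinned to 10000 UMIs, Efna5 was found in 22.4% of members and 21.0% of double-negative cells of all libraries. When UMIs were summed within libraries, neither marker passed the test as higher in members: the log2 fold change was 0.11 ± 0.33 (SE, 5 libraries) for Efna5 and -0.77 ± 0.14 for Hoxc10. Chodl, which encodes a membrane lectin, is another gene that the study names for the hindlimb. It was 42.8, 7.12, 5.97, 28.7 and 4.38 CPM in members of libraries 6 to 10. In double-negative cells it was 30.8, 1.93, 2.75, 3.72 and 3.4 CPM. Members were higher in 5 of 5 libraries, but with too few counts to be tested. A Chodl UMI was found in 16 of 54 members and 11 of 60 double-negative cells. In library 6, 1 member held 22 Chodl UMIs and 1 double-negative cell held 11. Epha3 had a log2 fold change of -0.97 ± 0.40 and did not pass. Of 4 other genes listed here as hindlimb proprioceptor candidates, 0 passed and 1 had a fold change above 0. In the same comparison at p1, 0 of the 4 passed and 4 were above 0. The study found Gabrg1 in only part of the lumbar proprioceptors at p1, and in e15.5 proprioceptors traced from hindlimb muscle. Double-negative cells may thus include limb proprioceptors, so this comparison cannot decide whether the members are of limb type. The cells are named by the rule and called Gabrg1-positive proprioceptors throughout.

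Gabrg1 and the alpha2 subunit gene Gabra2 lie side by side on mouse chromosome 5 and are read from the same strand. In GENCODE M21 (GRCm38), Gabrg1 (ENSMUSG00000001260) spans 70751047 to 70842617 on the minus strand and Gabra2 (ENSMUSG00000000560) spans 70957597 to 71095849, with 114979 bp between them. The 250 bases before each RefSeq start site are shown because these neighbors were the GABA-A subunit genes that differed most between members and double-negative cells, Gabrg1 by the rule itself. The Gabrg1 window is chr5:70842618-70842867 and the Gabra2 window chr5:71095850-71096099 (GRCm38.p6, minus strand, 5' to 3'), with letters of the ETS motif CCGGAA in capitals.
Gabrg1: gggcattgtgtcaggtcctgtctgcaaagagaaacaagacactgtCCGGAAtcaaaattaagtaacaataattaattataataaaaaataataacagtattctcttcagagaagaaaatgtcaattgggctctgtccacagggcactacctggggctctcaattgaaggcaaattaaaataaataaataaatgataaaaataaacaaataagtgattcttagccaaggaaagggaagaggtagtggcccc
Gabra2: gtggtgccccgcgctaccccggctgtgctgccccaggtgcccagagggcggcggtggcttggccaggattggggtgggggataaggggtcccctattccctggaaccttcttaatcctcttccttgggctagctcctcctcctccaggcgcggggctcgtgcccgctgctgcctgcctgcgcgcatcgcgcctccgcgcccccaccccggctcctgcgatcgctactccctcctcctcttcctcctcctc
The windows differed in base composition, with 35.6% G or C for Gabrg1 and 70.0% for Gabra2. Both strands were searched for the letters TGTGGT (RUNX), CCGGAA (ETS) and TGATTNAT (HOX with PBX). Gabrg1 held 1 ETS match and Gabra2 held no match to any of them, while 14.0%, 12% and 2.82% of 32851 RefSeq promoter windows of that length held the RUNX, ETS and HOX-PBX letters.

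Members were unevenly spread over the libraries. Libraries 1 to 10 held 1, 0, 1, 0, 2, 3, 8, 10, 18 and 15 members, out of 22, 15, 6, 6, 38, 8, 20, 34, 47 and 63 proprioceptors. The share was 4.55% (exact 95% binomial interval 0.115 to 22.8%) in library 1 and 38.3% (24.5 to 53.6%) in library 9. Library 2, with 0 of 15 cells, allows a share of up to 20% by the limit of 3 counts (21.8% by the exact interval), and library 4, with 0 of 6, up to 50% (45.9%). These intervals and limits cover counting error only. Hoxc10, summed over all proprioceptors of a library, was 1.98 to 55.3 CPM in libraries 1 to 5 and 115 to 155 CPM in libraries 6 to 10, which also held 54 of the 58 members. Whether the level of the ganglia set both was not tested.

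**Figure D1:**
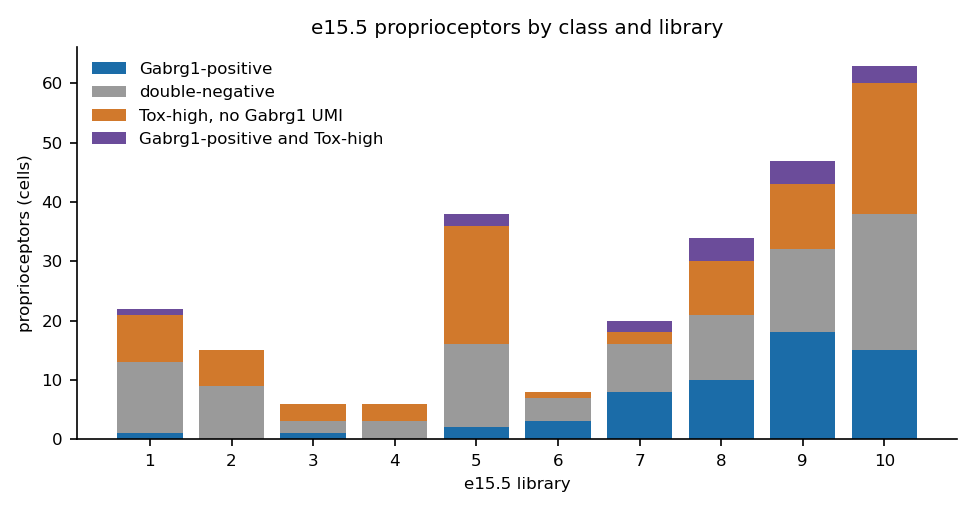
Number of e15.5 proprioceptors (vertical axis, cells) in each of 10 libraries (horizontal axis), stacked by class. Libraries 6 to 10 held 54 of the 58 Gabrg1-positive cells, and library 10 held the most proprioceptors, 63.

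Among the members, Gabrg1 ranged from 1 to 83 UMIs with a median of 2, or 4.0 to 383 CPM with a median of 21.1 CPM. Of the 58 cells, 22 held 1 Gabrg1 UMI, 17 held 2 to 4, and 19 held at least 5. A Gabrg1 UMI was found in 3 of 271 wells rich in collagen transcripts and without an Isl1 UMI (1.11%), at a median depth of 28248 UMIs. Since the rule used Gabrg1, Tox, Pvalb, Runx3, Etv1, Ntrk3 and the glial and collagen genes, their levels are given without a test.

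To ask what else sets the members apart from proprioceptors with neither gene, UMIs were summed within each library that held at least 3 cells of both classes (libraries 6 to 10, 54 members and 60 double-negative cells) and compared with library as a block. Members carried more transcripts of Gabra2, of the serotonin receptor gene Htr2c, of Rgs4 and Kctd12, which restrain G-protein signaling, of Brinp3, of Ppp1r3b, a glycogen-targeting subunit of protein phosphatase 1, and of Reg3b, a secreted lectin that can rise in injured sensory neurons, and fewer of the membrane protein gene Tmem255a. In all, 9 of 10247 genes (0.0878%) passed the quasi-likelihood test of edgeR after Benjamini-Hochberg correction at 0.05, 7 of them higher (0.0683%) and 2 lower (0.0195%) in members, and 506 genes had an unadjusted p under 0.05. DESeq2 called 19 genes, 7 of the 9 among them.

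Gabra2 (ENSMUSG00000000560) stood at 69.6, 30.3, 46.5, 99.5 and 54.0 CPM in members of libraries 6 to 10, and at 25.7, 23.1, 9.61, 30.5 and 17.0 CPM in the double-negative cells. Members were higher in 5 of 5 libraries, while the ranges of the classes touched, since members of library 7 lay just below double-negative cells of library 9. The log2 fold change was 1.52 ± 0.21 (SE; edgeR adjusted p = 0.0126), and it was no longer past the threshold without library 8 (1.42, edgeR adjusted p = 0.0537), without library 9 (1.45, 0.200) or without library 10 (1.45, 0.151). Of 6 GABA-A subunit genes that could be tested besides Gabrg1, Gabra2 was the one that passed. Gabrb1 had a log2 fold change of 0.71 ± 0.35, not past the threshold, and the median over the 6 was 0.26 against -0.00 over all genes tested. The chloride transporter and scaffold genes of GABA-A signaling gave 0 calls among 9 (median 0.03).

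Htr2c (ENSMUSG00000041380) was 16.1, 30.3, 25.7, 29.1 and 19.5 CPM in members, against 7.71, 8.68, 2.75, 2.98 and 5.66 CPM in double-negative cells. Every member value lay above every double-negative value, as held for 0.732% of genes in either direction. Its log2 fold change was 2.19 ± 0.32 (edgeR adjusted p = 0.0172), and without library 8, 9 or 10 it was 2.05, 1.92 or 2.38 with edgeR adjusted p of 0.0766, 0.193 and 0.0840.

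Rgs4 (ENSMUSG00000038530), an RGS protein gene that speeds the shut-off of G proteins, stood at 114, 158, 66.2, 95 and 52.5 CPM in members and at 36.0, 14.5, 24.7, 8.93 and 14.0 CPM in double-negative cells. The ranges did not overlap, the log2 fold change was 2.37 ± 0.27 (edgeR adjusted p = 0.00358), and Rgs4 was the gene that passed under each of the 16 alternative settings in which it could be tested. Kctd12 (ENSMUSG00000098557), which encodes an auxiliary subunit of the GABA-B receptor, was 220, 81.9, 143, 152 and 80.8 CPM in members against 28.3, 28.0, 41.2, 73.6 and 18.9 CPM. Its ranges did not overlap either, with a log2 fold change of 1.75 ± 0.20 (edgeR adjusted p = 0.00358).

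Brinp3 (ENSMUSG00000035131), a membrane-associated neural protein gene, was 5.36, 26.7, 25.1, 57.4 and 10.7 CPM in members and 0, 2.89, 1.37, 13.4 and 1.89 CPM in double-negative cells. Members were higher in 5 of 5 libraries, with a log2 fold change of 2.58 ± 0.32 (edgeR adjusted p = 0.00587). Ppp1r3b (ENSMUSG00000046794) was 125, 62.3, 78.2, 79.3 and 62.3 CPM in members and 64.2, 37.6, 33.0, 36.4 and 41.1 CPM in double-negative cells. It too was higher in 5 of 5 libraries, with a log2 fold change of 0.91 ± 0.15 (edgeR adjusted p = 0.0361), and lost its call without library 8 (0.84, edgeR adjusted p = 0.161), 9 (0.85, 0.323) or 10 (1.01, 0.109).

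Reg3b (ENSMUSG00000071356) had the largest fold change of the called genes and rested on few cells. It was 0, 169, 385, 84.7 and 56.9 CPM in members and 0, 0, 34.3, 2.98 and 13.2 CPM in double-negative cells, with a log2 fold change of 3.56 ± 0.43 (edgeR adjusted p = 0.00605). Of 1047 Reg3b UMIs in the 54 members, 645 came from 1 cell (61.6%), and 20 of the 54 members held any. Without that cell, an alternative chosen after seeing the data, the log2 fold change was 2.45 (edgeR adjusted p = 0.867), and those of Kctd12 and Tmem255a were 1.48 (0.128) and -1.04 (0.0597). Reg3b also lost its call without library 8 (3.65, edgeR adjusted p = 0.0572) and without library 9 (3.38, 0.0502). The 5 members richest in each gene held 89.9% of its UMIs for Reg3b, 59.1% for Rgs4, 51.2% for Kctd12 and 51.0% for Brinp3. This share was lower for Gabra2, Htr2c, Ppp1r3b and Tmem255a.

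Tmem255a (ENSMUSG00000036502) was 12.5, 19.6, 29.2, 25.1 and 16.1 CPM against 28.3, 40.5, 64.6, 61.0 and 27.2 CPM. It was lower in 5 of 5 libraries (log2 fold change -1.08 ± 0.17; edgeR adjusted p = 0.0361) and not past the threshold without library 8 (-1.06, edgeR adjusted p = 0.180), 9 (-1.0, 0.379) or 10 (-1.19, 0.109).

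**Figure D2:**
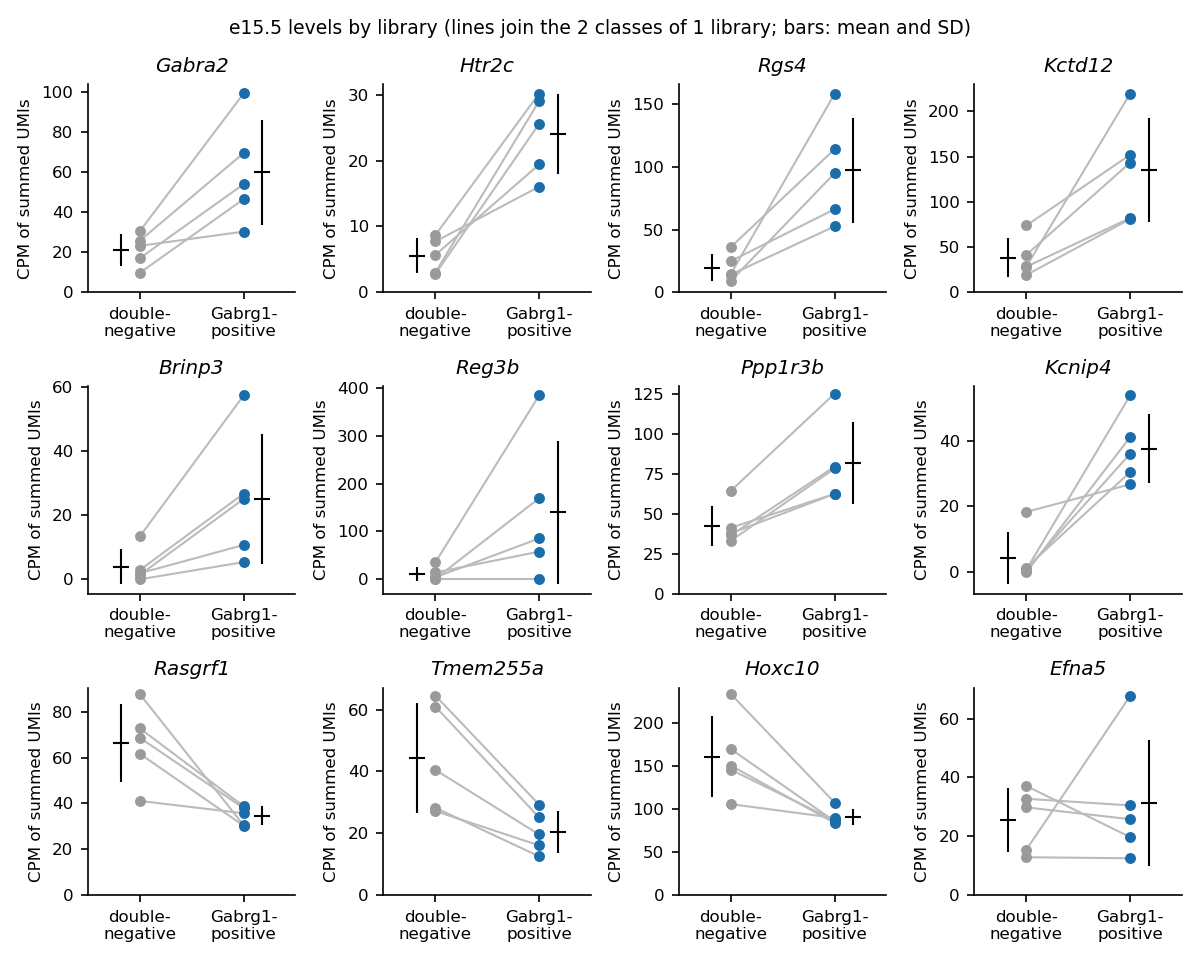
Levels of 12 genes (vertical axes, CPM of UMIs summed over the cells of a class in a library) in double-negative (gray) and Gabrg1-positive (blue) e15.5 proprioceptors; each line joins the classes of 1 of 5 libraries, and bars give mean and SD. Rgs4, Htr2c, Kctd12, Kcnip4 and Rasgrf1 do not overlap between classes, whereas Efna5 was higher in members in 1 of 5 libraries.

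Below the threshold, the members' values for the positional gene Hoxc10 (ENSMUSG00000022484) were 85.7, 83.7, 107, 89.6 and 86.6 CPM, against 170, 150, 234, 106 and 146 CPM in double-negative cells. They were lower in 5 of 5 libraries, at an edgeR adjusted p of 0.0732 that became 0.0162 with DESeq2. Over 16 other settings Hoxc10 passed in 4, with log2 fold changes of -1.395 to -0.677 and an edgeR or DESeq2 adjusted p of up to 0.637. The 10 tested Hox genes of paralog groups 1 to 8 all had fold changes above 0 (median log2 0.23) and none passed. Hoxa5 was at 0.72 ± 0.17 and Hoxb7 at 0.73 ± 0.18. Rasgrf1, a Ras exchange factor gene, had a log2 fold change of -0.99 ± 0.18 (edgeR adjusted p = 0.0732) and Tmem132d of -1.99 ± 0.37 (0.0880), each lower in 5 of 5 libraries. None of 28 lineage transcription factor genes, 5 EphA receptor genes or 3 ephrin-A ligand genes passed. Efna5 (ENSMUSG00000048915) was 12.5, 67.7, 19.7, 30.5 and 25.8 CPM in members and 12.8, 15.4, 37.1, 32.7 and 29.8 CPM in double-negative cells.

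Over cells pooled across libraries, the raised genes were highest in the members with the most Gabrg1 UMIs, though not all rose at each step. In libraries 6 to 10, Gabra2 was 20.7 CPM over the 60 double-negative cells, 35.8 CPM over 20 members with 1 Gabrg1 UMI, 48.5 CPM over 16 with 2 to 4 and 108 CPM over 18 with at least 5. Kctd12 was 35.6, 33.1, 110 and 238 CPM over the same cells, Rgs4 15.6, 45.7, 48.5 and 143 CPM, and Htr2c 5.37, 12.2, 20.2 and 40.0 CPM. Brinp3 was 4.39, 6.47, 6.54 and 69.0 CPM and Ppp1r3b 40.0, 54.4, 83.4 and 93.4 CPM. Reg3b was 10.4, 31.2, 72.0 and 317 CPM, with 645 of the 833 UMIs of the last group from 1 cell. Hoxc10 ran the other way at 150, 128, 86.1 and 60.6 CPM. These are descriptions over cells sorted by the gene the rule used, and median depth rose alongside, from 107282 to 126124, 124104 and 155110 UMIs. Depth was higher in members in 4 of 5 libraries (exact sign-flip test over libraries, two-sided p = 0.312, where the smallest possible is 0.0625), and its part in these levels was not tested.

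**Figure D3:**
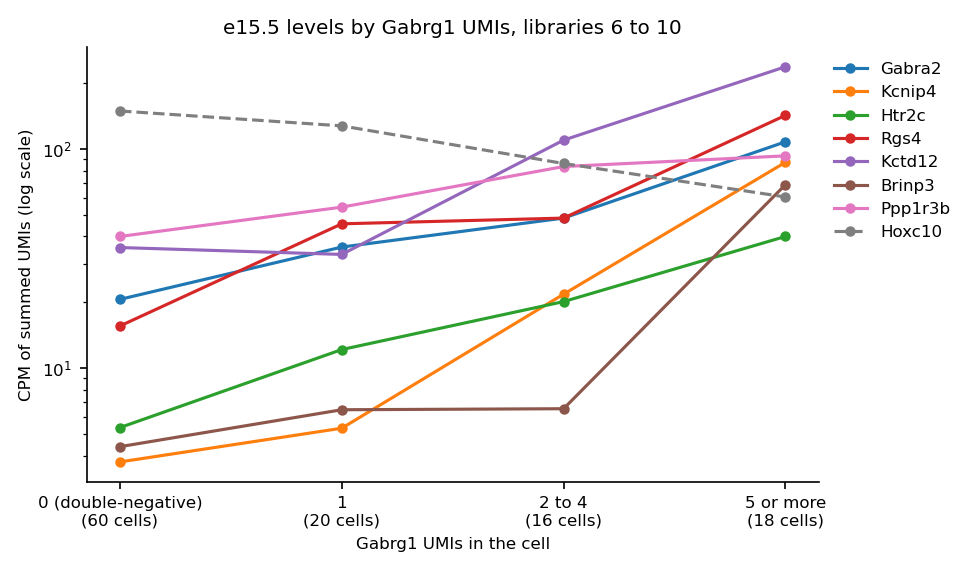
Levels of 8 genes (vertical axis, CPM on a log scale) in e15.5 proprioceptors of libraries 6 to 10, grouped by Gabrg1 UMIs in the cell (horizontal axis); the dashed line is Hoxc10. Gabra2 goes from 20.7 to 108 CPM and Hoxc10 from 150 to 60.6 CPM between the first and the last group.

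Kcnip4, which encodes an accessory subunit of A-type potassium channels, was picked after its values were seen. It spans 48389502 to 49524907 on the minus strand of chromosome 5 in GENCODE M21 (ENSMUSG00000029088; 1135406 bp). Its level was 41.1, 26.7, 30.4, 53.8 and 36.0 CPM in members and 0, 18.3, 1.37, 0.744 and 0.754 CPM in double-negative cells, without overlap. The log2 fold change was 3.41 ± 0.59 (edgeR adjusted p = 0.0657), 4.64 with DESeq2 (adjusted p = 0.00658) and 5.53 without library 7 (edgeR adjusted p = 9.71e-05). Over 16 other settings it passed in 6, with log2 fold changes of 2.82 to 5.53 and an edgeR or DESeq2 adjusted p of up to 0.373. Over the cells of all libraries, a Kcnip4 UMI was found in 28 of 58 members and 17 of 100 double-negative cells. In the libraries of the fit it was found in 6 of 60 double-negative cells. Among members there it was found in 6 of 20 with 1 Gabrg1 UMI, 4 of 16 with 2 to 4 and 14 of 18 with at least 5. These counts were not adjusted for depth, which was higher in members. Over the same groups by Gabrg1 UMIs the Kcnip4 level was 3.74, 5.33, 21.8 and 87.3 CPM.

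More genes were called against the 42 Tox-high cells of libraries 8 to 10 than against the double-negative cells of libraries 6 to 10. The libraries of these fits differ, so the numbers of calls do not show which difference is wider. Of 11430 genes, 642 passed edgeR's test (5.62%), 332 higher (2.90%) and 310 lower (2.71%) in the 43 members of libraries 8 to 10. Members carried less of 4 EphA receptor genes, more of several GABA-A subunit, Hox and insulin-like growth factor genes, and more of Kcnip4. The member cells are shared with the comparison above, so the fold changes are set side by side and their likeness is not counted as support. All 9 genes called above passed here in the same direction, Brinp3 at 1.45 ± 0.31 but at 0.83 without library 9 (edgeR adjusted p = 0.318). Gabra2 had a log2 fold change of 1.60 ± 0.18 and Kctd12 of 2.43 ± 0.16, while Ppp1r3b, at 0.91 against double-negative cells, was 2.55 ± 0.19 (edgeR adjusted p = 2.32e-09), with 10.3, 15.3 and 11.5 CPM in Tox-high cells.

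Of 6 EphA receptor genes tested, 4 were lower in members than in Tox-high cells and 0 higher (median log2 -1.47, against -0.00 over all genes). Over all 11430 genes, 2.71% were lower and 2.90% higher. Epha3 (ENSMUSG00000052504) was 8.35, 7.62 and 12.7 CPM in members of libraries 8 to 10 and 39.8, 38.2 and 50.4 CPM in Tox-high cells (log2 fold change -2.16 ± 0.23; edgeR adjusted p = 4.47e-07). Epha7 was 60.9, 61.8 and 72.5 CPM against 179, 163 and 271 CPM (-1.66 ± 0.11; edgeR adjusted p = 3.63e-10), also without overlap, as held for 16.3% of genes. Epha4 was at -1.41 ± 0.19 and Epha5 at -1.34 ± 0.23, the latter with a DESeq2 adjusted p of 0.0546. Among ephrin-A ligand genes, Efna2 rose by 0.84 ± 0.18 on the log2 scale, and Efna5 had 0.38 ± 0.23 with an edgeR adjusted p of 0.499. Against double-negative cells the same receptors had log2 fold changes of -0.97 ± 0.40 (Epha3), -0.47 ± 0.23 (Epha4), -0.05 ± 0.42 (Epha5) and -0.12 ± 0.34 (Epha7), none past the threshold.

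The counts of the next families stand beside 2.90% higher and 2.71% lower over all 11430 genes. Among GABA-A receptors, 4 of 7 subunit genes were higher in members than in Tox-high cells, among them Gabra2, Gabrb1 (1.05 ± 0.27) and Gabra5 (0.53 ± 0.12), and 0 were lower. Among Hox genes of groups 1 to 8, 4 of 14 were higher, among them Hoxa5 at 1.45 ± 0.14 and Hoxa7 at 1.16 ± 0.11. Among groups 9 to 13, Hoxb9 (1.64 ± 0.24), Hoxa10 (1.28 ± 0.18) and Hoxa9 (1.16 ± 0.16) were higher and Hoxc10 (-1.05 ± 0.12) was lower, of 7 tested. In the insulin-like growth factor system, the protease gene Pappa2 (2.28 ± 0.13), the binding protein gene Igfbp5 (1.89 ± 0.13) and Igf1 (1.75 ± 0.17) were higher, of 8 tested. Neurofilament genes Nefm (0.48 ± 0.06), Nefh (0.65 ± 0.11) and Nefl (0.24 ± 0.05) and Prph (0.34 ± 0.06) were higher among 18 axon genes, and 0 were lower.

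Cell surface genes were divided, where 2.90% of all 11430 genes were higher and 2.71% lower. Of 35 teneurin, contactin, IgLON and synaptic adhesion genes, 9 were higher and 9 lower, with Opcml at 2.68 ± 0.22 and Ntm at 2.05 ± 0.16. Cdh13, a cadherin gene without a cytoplasmic tail, fell by 1.66 ± 0.10 on the log2 scale, Cdh4 fell by 1.79 ± 0.30, and Cdh11 rose by 1.79 ± 0.37. Cdh13 is also 1 of the 4 genes listed as hindlimb proprioceptor candidates, of which 1 was higher and 2 were lower than in Tox-high cells. Protocadherin genes Pcdh10 (1.35 ± 0.12) and Pcdh17 (1.5 ± 0.24) were higher and Pcdh7 (-0.61 ± 0.08) was lower. Of 31 lineage transcription factor genes, 5 were higher, Casz1 among them at 1.61 ± 0.12, and 8 were lower.

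**Figure D4:**
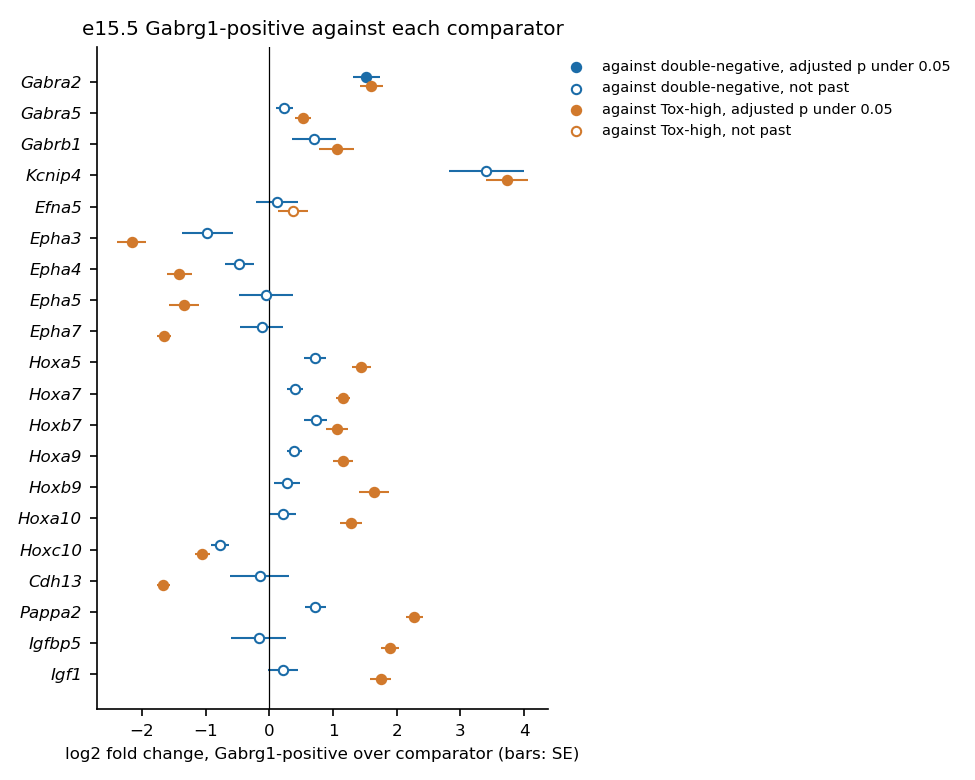
Log2 fold changes (horizontal axis, bars SE) of 20 genes in e15.5 Gabrg1-positive proprioceptors against double-negative cells (blue, 5 libraries) and against Tox-high cells (orange, 3 libraries); filled points passed edgeR's test. Gabra2 is filled in both, and the 4 EphA receptor genes are filled only against Tox-high cells; the difference between the comparisons was not tested.

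Of the 10 genes with the largest rise against Tox-high cells (a choice made after the values were seen, among genes of at least 10 CPM and with the same sign in all 3 libraries), 8 are unconfirmed gene models of type TEC that lie inside Kcnip4 on its strand. The other 2 were Reg3b (5.82 ± 0.23) and Mme (4.64 ± 0.54), which encodes the peptidase neprilysin. Kcnip4 itself rose by 3.73 ± 0.33 on the log2 scale (edgeR adjusted p = 3.17e-08), from 4.42, 3.27 and 1.44 CPM. GENCODE places 30 other gene models inside Kcnip4, 26 of them TEC and 24 on its strand, and 14 of 14 that could be tested passed as higher in members. The largest of the 8, 2900064K03Rik, had a log2 fold change of 6.52 ± 0.44. Reads of these models and of Kcnip4 transcripts cannot be told apart in these counts, so the models are not read here as separate genes. The 332 higher calls above do include these 14 models. Of the genes with the largest fall, Nts, the neurotensin gene, was 1.59 CPM in members against 30.1 CPM (means over libraries; -4.02 ± 0.43) and Stc2, which encodes a stanniocalcin, was at -2.63 ± 0.33.

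At p1, the same rule gave 41 Gabrg1-positive and 25 double-negative cells, of which 40 and 22 in 3 libraries entered the comparison, and median depth in members was above that in double-negative cells in each. There, 9 of 9350 genes passed (0.0963%), 5 higher (0.0535%) and 4 lower (0.0428%). Gabra2 was 209, 460 and 275 CPM in members and 128, 185 and 111 CPM in double-negative cells, higher in 3 of 3 libraries (log2 fold change 1.02 ± 0.17; edgeR adjusted p = 0.0275). It was the gene that passed at both ages. Gm43341, a TEC model inside Kcnip4, was 3.06 ± 0.40 (edgeR adjusted p = 0.00419), and Kcnip4, at 37.5, 75 and 70.3 CPM against 16.6, 20.3 and 19.6 CPM, was 1.49 ± 0.29 (0.0605). Tac1, the substance P precursor gene (1.74 ± 0.26), Sema3d, a secreted semaphorin gene (1.28 ± 0.22), and the metallothionein gene Mt1 (1.34 ± 0.24) were higher. Itga2, Pmepa1, Igf1 and Thsd7a were lower, each in 3 of 3 libraries, Igf1 by log2 -1.84 ± 0.29. In library 1, however, Igf1 was 11.5 CPM in members and 11.8 CPM in double-negative cells. Its fall came from libraries 2 and 5, at 30.4 against 156 CPM and 93.7 against 307 CPM. The double-negative sums of libraries 2 and 5 held only 4 and 5 cells, with median depths of 64293 and 41340 UMIs.

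Of the 9 genes called at e15.5, 7 could be tested at p1 and 5 had the same sign. Rgs4 was -0.02 ± 0.35 at p1 and Tmem255a 0.01 ± 0.16. Efna5 was 11.5, 163 and 130 CPM in p1 members and 9.47, 66.6 and 45.7 CPM in double-negative cells, a log2 fold change of 1.09 ± 0.26 with an edgeR adjusted p of 0.166. The difference between ages, tested as an interaction over 8 libraries, passed for 0 of 11210 genes with edgeR (0%), 476 of which had an unadjusted p under 0.05, and for 3 with DESeq2. Ages also differ in strain and in how cells were collected, which cannot be told apart from age. The 9 calls at p1 became 152 without library 1, 5 without library 2 and 0 without library 5.

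**Figure D5:**
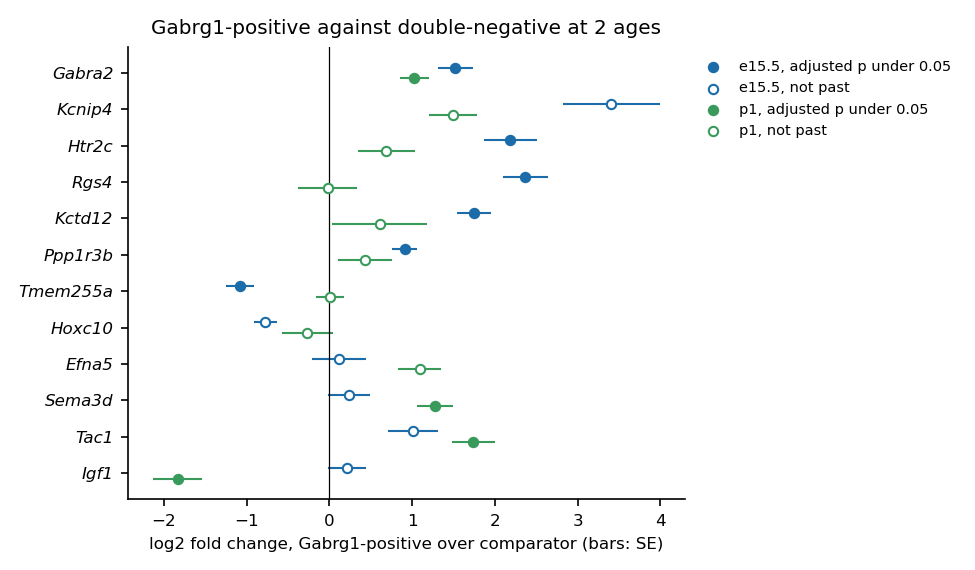
Log2 fold changes (horizontal axis, bars SE) of 12 genes in Gabrg1-positive against double-negative proprioceptors at e15.5 (blue, 5 libraries) and p1 (green, 3 libraries); filled points passed edgeR's test. Gabra2 is filled at both ages, at 1.52 and 1.02.

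Marker lists of other cells were summed in both classes; with 5 libraries the exact test used here cannot go below p = 0.0625, so the sums are given as values. The glial list, 8 genes besides those of the rule, summed to 12.2 to 38.5 CPM in members and 6.04 to 192 CPM in double-negative cells of the 5 libraries (exact two-sided sign-flip p = 0.875), with 1 of 8 genes at 0 in members. The mesenchymal list summed to 8.76 to 135 CPM and 9.81 to 105 CPM (p = 0.625 by the exact test), with 0 of 8 at 0. Nociceptor genes summed to 109 to 307 CPM and 91.3 to 375 CPM (exact p = 0.438), with 0 of 9 at 0. Among them Tac1 was 161, 97.9, 200, 182 and 46.2 CPM in members and 59.1, 131, 45.3, 49.8 and 40.7 CPM in double-negative cells, higher in 4 of 5 libraries (log2 fold change 1.01 ± 0.30; edgeR p = 0.00541, adjusted p = 0.528). Mechanoreceptor genes summed to 16.1 to 128 CPM and 20.5 to 126 CPM (exact p = 0.688), with 1 of 6 at 0, and of these Gfra2 was lower in 4 of 5 libraries (log2 fold change -1.56 ± 0.33; edgeR p = 0.000446, adjusted p = 0.157). Proliferation genes summed to 66.7 to 118 CPM against 79.6 to 343 CPM (exact p = 0.125), with 0 of 7 at 0. Blood genes were 4.87 to 248 CPM against 5.49 to 79.6 CPM (exact p = 0.938), with 1 of 6 at 0. Muscle genes were 7.14 to 23.8 CPM against 13.7 to 36.6 CPM (exact p = 0.188), with 4 of 8 at 0, and endothelial genes were 3.57 to 6.81 CPM against 0 to 5.79 CPM (exact p = 0.188), with 3 of 6 at 0. The part of these cells' RNA in the results above was not tested.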

How the data were processed

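Values are deposited UMI counts per gene and well, made by the authors with scruff from CEL-Seq2 reads; the labels' processing notes name GRCm38 (mm10). Members and lists were chosen with earlier results of these data known. Libraries held 3701900 to 9299431 UMIs at e15.5, and 0 columns were left out. UMIs were summed per library and class (at least 3 cells of each) and tested with edgeR 4.0.16 (quasi-likelihood F test, filterByExpr, TMM, library as block, Benjamini-Hochberg over all genes tested) in R 4.3.3, with SE from the fold change and its F. The library pairs the classes, which share a preparation: own-library correlations of deviations were 0.118 to 0.691 at e15.5. In simulated counts for the first comparison, 97.5% of 200 genes changed 4-fold among 10247 were recovered. So many changed genes loosen the Benjamini-Hochberg limit. The share recovered thus does not carry over to the real fit, which had far fewer calls. Named genes were those past the threshold with at least 10 CPM and 1 sign in at least 80% of libraries, up to 12 a direction (filled to 6 by smallest p), genes the study names, genes of the rule and up to 4 a list. Some genes that entered these fits and counts are not reported here. All 960 and 576 count vectors were distinct. Doublets were not removed. DESeq2 1.42.0, RLE scaling, low-count filters, depth, cell minimums, stricter Gabrg1 and Tox limits, thinning and leaving out libraries were alternatives. Intervals are exact binomial at 95%; a count of 0 allows 3 counts. Gene places are from GENCODE M21, promoters from RefSeq (8 of 10 genes matched).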

Additional observations from a re-analysis of the deposited data

Results flagged for a closer look

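Within groups of 5 libraries, 7 values of 46 groups examined stood apart from the rest by the gap to their nearest neighbor, where chance gives about 1 in 20. Brinp3 was 13.4 CPM in double-negative cells of library 9. Ppp1r3b was 125 CPM in Gabrg1-positive and 64.2 CPM in double-negative cells of library 6, which has the fewest cells of the fit. Hoxc10 was 107 CPM in Gabrg1-positive cells of library 8. Chodl was 30.8 CPM in double-negative cells of library 6, and Epha3 was 33.9 CPM in Gabrg1-positive cells of that library. Kcnip4 was 18.3 CPM in double-negative cells of library 7.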

How the results depend on the processing

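The 9 calls against double-negative cells became 2 without the library block (no replicate block), 19 with DESeq2, 171 with no filter on low counts, 23 with sums of at least 5 cells and 23 with sums of at least 1 cell, 18 for members with at least 2 Gabrg1 UMIs, 61 for at least 20 CPM of Gabrg1, 17 for cells with no Tox UMI and 0 after thinning to 10000 UMIs, where fewer genes could be tested; leaving out a library gave 3 (library 9) to 30 (library 7). Of the 9 genes, 2, 7, 9, 9, 5, 7, 5, 4 and 0 were among those calls, in that order. In wells of at least 50000 UMIs there were 6 calls, all of them among the 9. The 642 calls against Tox-high cells became 363 without the block and 209 with DESeq2, and 493 to 591 when a library was left out. At p1, 9 calls became 0 without the block, 100 with no filter, 0 in wells of at least 50000 UMIs, and 0 to 152 when a library was left out. The 0 calls between ages became 3 with DESeq2, 46 with no filter, 1 at 50000 UMIs and 0 to 3 when a library was left out. The share of members, 22.4%, was 13.9% for at least 2 UMIs and 8.11% after thinning. The cause of these shifts was not tested. Uncalled genes whose sign turned against double-negative cells were Efna5 (-0.12 at 20 CPM of Gabrg1, and -0.34 to 0.37 over settings), Epha5 (0.10 with DESeq2, 0.007 at 50000 UMIs, 0.28 with at least 2 UMIs, up to 0.39 without library 8) and Epha7 (0.21 with no Tox UMI, and -0.371 to 0.285 when a library was left out). The mean difference in mitochondrial percent turned to -0.0577 at 50000 UMIs and ran from -0.526 to 1.54 when a library was left out, that of the glial sum from -43.7 to 8.30 CPM and that of the mesenchymal sum from -0.655 to 24.6 CPM.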
